A study of Drosophila melanogaster with 12 samples.

Results

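The Mediator complex is the large coactivator that joins transcription factors bound to enhancers with RNA polymerase II at the promoter. Its head and middle modules contact the polymerase, its tail contacts activators, MED14 runs through the core as a scaffold, and a separable kinase module of Cdk8, CycC, kto (the fly MED12) and skd (the fly MED13) regulates how the core engages the polymerase. Mediator acts in the nucleus, but like other proteins its subunits are made in the cytoplasm, so the messages described here are those of nuclear proteins.

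The genes were taken by name: every probe set whose annotation held 1 gene symbol and whose symbol was MED followed by a digit, or was skd, kto, CycC or Cdk8. This gave 25 probe sets of 24 genes, out of 10844 genes with a single symbol on the array. Of the 30 Mediator genes looked for, MED7, MED21 and MED22 were not analysed here, MED9 and MED23 lay only on the 3 probe sets that also carried a second symbol, and MED29 goes by the name ix in the fly and so fell outside the name rule. MED26 had 2 probe sets and every other gene 1. The genes were placed as 6 of the head, 3 at the border of head and tail (MED27, MED28 and MED30, whose placement varies between schemes), 6 of the middle, MED14, 4 of the tail and 4 of the kinase module.

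The cells were D. mel-2, a fly line, treated by RNA interference with either U2AF50 or a non-specific sequence (the control) as the target, and then split into nucleus and cytoplasm before RNA was taken. U2AF50 is the larger protein of U2AF, which recognises the 3' splice site of introns. The 12 samples formed 4 groups of 3: control cytoplasm, control nucleus, U2AF50 cytoplasm and U2AF50 nucleus, each hybridised to a 1-colour Affymetrix array. Hypotonic lysis was named in the labels of 9 samples but not in those of control cytoplasm replicates 1 and 2 and control nucleus replicate 1. All samples came from the same kind of cell line, and the labels do not say that replicates were separate cultures, so the p-values cover spread between samples that may be only technical.

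The values are deposited intensities, and changes are on the scale of log2(intensity + 94.7) after quantile normalisation, which understates the change of weak signals. Tests are limma's over 8379 probe sets, with a Benjamini-Hochberg adjusted p under 0.05 as the threshold. All 25 Mediator probe sets passed the filter on low mean signal, at the 43.4th (Cdk8) to 90.9th (MED30) percentile of mean signal. Arrays of 1 group correlated with r between 0.854 and 0.958. Where groups are said below not to overlap, this only describes the arrays. The share of all tested probe sets without overlap was not counted, so it adds no weight to a change that did not pass. The targeted mRNA, U2af50, was at 29.8% of control in the cytoplasm (log2 change -1.75, SE 0.26, limma adjusted p = 0.0012) and at 116% in the nucleus (adjusted p = 0.738), so the depletion is seen in the cytoplasmic fraction. Of 10 markers of plasmatocytes, the blood cell type that cultured fly lines resemble, 9 passed the signal filter, with a median percentile of 80.2, and NimC1 did not (3.4). Of those 9, 8 were higher in the control nucleus, beside 16.9% of all tested probe sets. The other, srp, stood at 0.01 (SE 0.26, limma adjusted p = 0.984). The median log2 change of the 9 was 3.68, the opposite direction to the Mediator calls, and what part this has in the values below was not tested. Of 3 neuronal markers 0 passed the filter, as did 1 of 3 muscle, 2 of 4 germ line and 3 of 4 fat body markers.

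In control cells, Mediator messages were lower in the nuclear than in the cytoplasmic fraction or showed no difference past the threshold. Of the 25 probe sets 10 were lower (40%), beside 25.2% of all tested probe sets, and 0 were higher, beside 16.9% of all tested. Their median log2 change was -0.54, against -0.27 for all tested probe sets. Each change is relative to the total signal of its fraction, so it gives no share of an mRNA in the nucleus, and in bulk RNA fewer cells that hold a message and less of it per cell cannot be told apart.

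**Figure D1:**
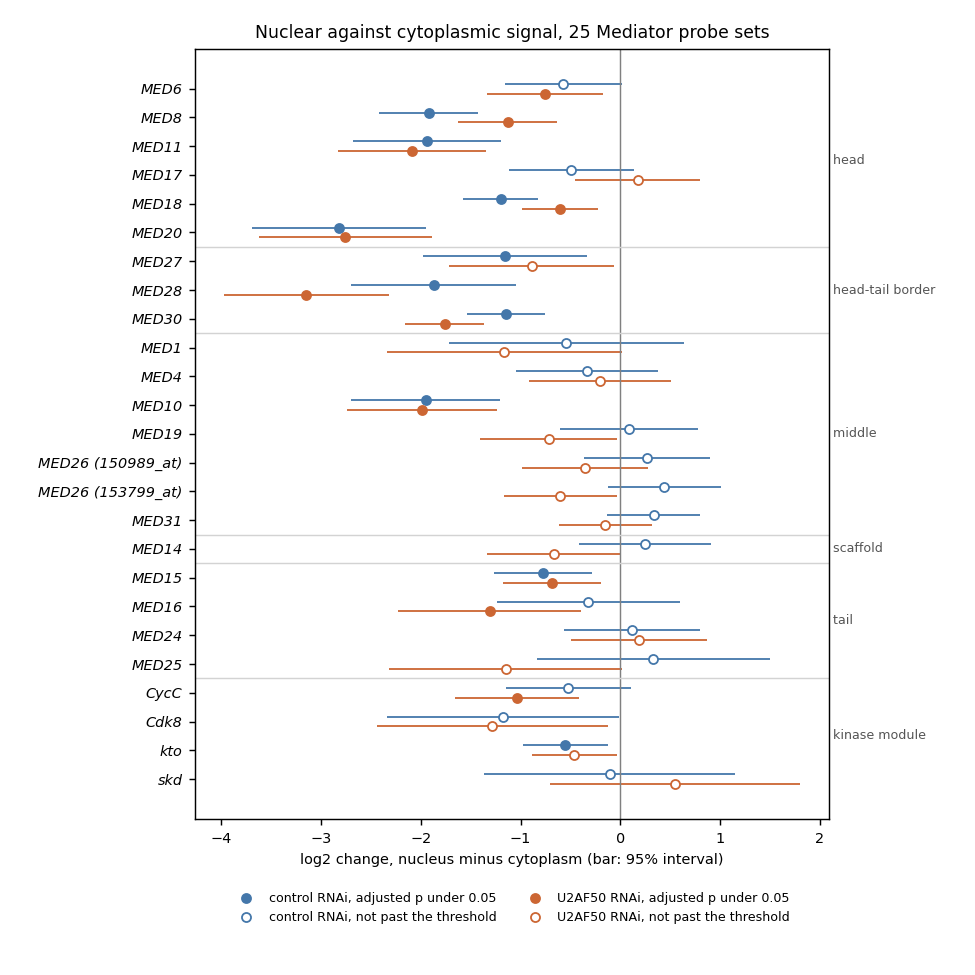
Nuclear minus cytoplasmic log2 signal (x axis) of the 25 Mediator probe sets, ordered by module, in control cells (blue) and U2AF50-depleted cells (orange), with 95% intervals; filled points passed the threshold. MED20 stood at -2.82 and -2.76 and MED28 at -1.87 and -3.15, and no filled point lies to the right of 0.

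The head subunit gene MED20 had the largest difference of the Mediator genes in control cells. Its cytoplasmic intensities in control cells were 815, 1576 and 1525, and its nuclear intensities 139, 94.9 and 40.8. All 3 nuclear values lay far below all 3 cytoplasmic ones, and the nuclear ones came close to the offset of 94.7, so the 7.06-fold difference (log2 change -2.82, SE 0.41, limma adjusted p = 2.04e-05) is compressed. In depleted cells the cytoplasmic intensities were 1079, 1503 and 977 and the nuclear ones 153, 139 and 59.7. The groups were again apart, and the difference was 6.76-fold (-2.76, SE 0.41, adjusted p = 2.70e-05). The change of MED20 with depletion was -0.05 in the cytoplasm (95% interval -0.92 to 0.82) and 0.02 in the nucleus (-0.85 to 0.89), so neither passed, and both intervals still allow a change of over 1.5-fold either way.

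**Figure D2:**
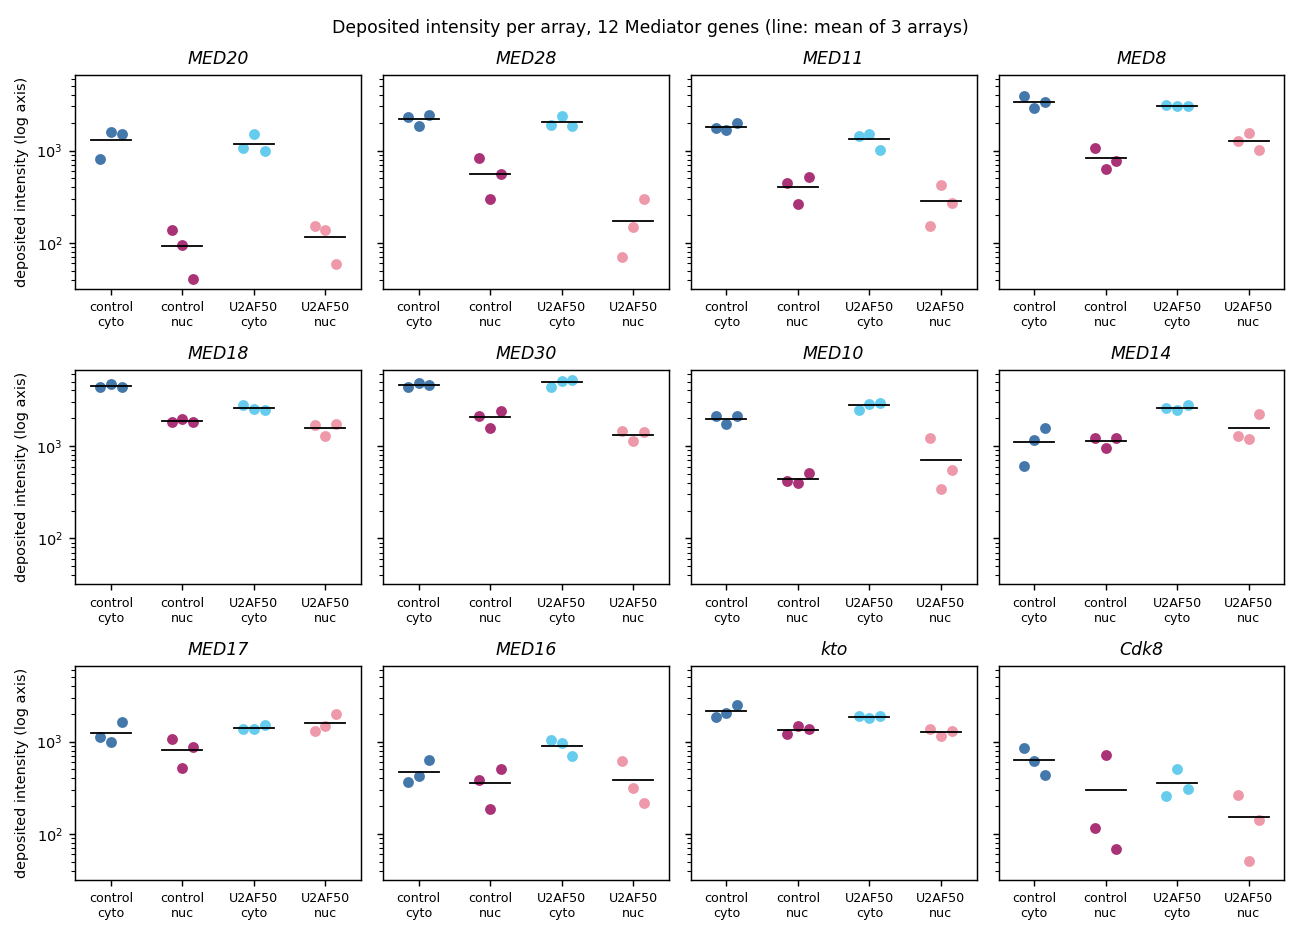
Deposited intensity (log axis) of 12 Mediator genes in each of the 12 arrays, by group, with a line at the mean of 3 arrays. MED20 nuclear arrays reach from 40.8 to 153 and its cytoplasmic arrays from 815 to 1576, and the U2AF50 cytoplasm arrays of MED14 lie above all control cytoplasm arrays.

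The other head genes called in control cells were MED8, MED11 and MED18. MED8, whose product holds MED18 and MED20 in the head, had intensities of 3912, 2919 and 3315 in the control cytoplasm and 1055, 637 and 774 in the control nucleus. MED11, a small head subunit, had 1773, 1659 and 1965 against 449, 262 and 512, and MED18, the partner of MED20, had 4359, 4727 and 4358 against 1820.3, 1987 and 1802. For these 3 genes no nuclear array reached the lowest cytoplasmic array. Their log2 changes were -1.92 for MED8 (SE 0.24, adjusted p = 2.64e-06), -1.94 for MED11 (SE 0.35, adjusted p = 2.02e-04) and -1.20 for MED18 (SE 0.18, adjusted p = 2.58e-05). The other head members were not called. MED6 stood at -0.57 (adjusted p = 0.11). Its nuclear arrays, at 479.6 to 762, lay below its cytoplasmic ones, at 1006 to 1139, which only describes the arrays. MED17, the central head subunit, stood at -0.49 (adjusted p = 0.202) with overlapping arrays. So 4 of 6 head probe sets were lower, with a median of -1.56, beside 25.2% of all tested probe sets.

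All 3 genes at the border of head and tail were lower in the control nucleus, beside 25.2% of all tested probe sets. MED28 read 2316, 1844 and 2425 in the control cytoplasm and 837, 297 and 558 in the control nucleus (log2 change -1.87, SE 0.39, limma adjusted p = 7.95e-04). MED30, a subunit that budding yeast lacks, read 4339, 4836 and 4622 against 2139.5, 1583 and 2420.4 (-1.14, SE 0.19, adjusted p = 6.52e-05). MED27 read 594, 982 and 1079 against 459.9, 182 and 353 (-1.16, SE 0.39, adjusted p = 0.0236). The groups did not overlap for any of them. The call for MED27 ended without control cytoplasm replicate 2 (adjusted p = 0.083) or 3 (0.097), without control nucleus replicate 2 (0.115), and in the fit on the control groups alone (0.0526).

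Elsewhere in the complex few differences passed, beside 25.2% of all tested probe sets that were lower. Of the 7 middle probe sets 1 was lower, that of MED10, a subunit contacting MED14, with cytoplasmic intensities of 2095, 1717 and 2105 against nuclear ones of 415, 402 and 509.5 (-1.95, SE 0.35, limma adjusted p = 2.00e-04). The groups lay well apart, whereas the other middle members overlapped between fractions: MED1 (-0.54, adjusted p = 0.474), MED4 (-0.34, 0.458), MED19 (0.09, 0.862), MED31 (0.34, 0.245) and the 2 MED26 probe sets (0.27 and 0.44, 0.516 and 0.211). The scaffold gene MED14 stood at 0.25 (adjusted p = 0.572). In the tail, MED15, the subunit through which several activators act, was lower (-0.77, SE 0.23, adjusted p = 0.0121), while MED16 (-0.32), MED24 (0.11) and MED25 (0.33) were not called. The MED15 arrays overlapped, with nuclear replicate 3 at 3264 above cytoplasmic replicate 1 at 2921.5. In the kinase module kto was lower (-0.55, SE 0.20, adjusted p = 0.0358), with CycC at -0.52 (adjusted p = 0.177), Cdk8 at -1.18 (0.0974) and skd at -0.11 (0.903).

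The calls for MED15 and kto were near the threshold. MED15 lost its call without control nucleus replicate 2 (adjusted p = 0.0862), without control cytoplasm replicate 3 (0.0582) and without the 3 control arrays whose labels name no hypotonic lysis (0.0642). That of kto ended in 10 of 26 alternatives, among them the fits without control nucleus replicate 1 (adjusted p = 0.114) or 3 (0.0759), without control cytoplasm replicate 2 (0.0633) or 3 (0.125), and without U2AF50 cytoplasm replicate 1 (0.0537), 2 (0.0526) or 3 (0.054). For Cdk8, the kinase itself, the control nuclear arrays read 116, 721 and 69.4 against 849.8, 624.5 and 433 in the cytoplasm, so nuclear replicate 2 lay among the cytoplasmic values.

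Beyond the name rule, ix (the fly MED29) was lower in the control nucleus (log2 change -0.74, SE 0.25, limma adjusted p = 0.0219) and stood at -0.12 in depleted cells (adjusted p = 0.713). The difference between these changes was 0.62 (SE 0.35, limma adjusted p = 0.462) and did not pass. The gene was added after Mediator results had been seen.

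Between the fractions of U2AF50-depleted cells, limma called 11 of 25 probe sets lower in the nucleus (44%), beside 30.9% of all tested probe sets, and 0 higher, beside 17.9%. The median was -0.76 against -0.29 for all tested. The 2 treatments share no arrays here, but they share the normalisation and the estimate of spread of each probe set. Their calls are therefore not independent. Of the genes, 8, namely MED8, MED10, MED11, MED15, MED18, MED20, MED28 and MED30, were lower under both treatments, 2 (MED27 and kto) in control cells alone and 3 (MED6, MED16 and CycC) in depleted cells alone, while 12 probe sets were called under neither. The matching shares of all tested probe sets were not counted, so this split has no background beside it. A call under 1 treatment and not the other does not show a difference between them, and the test of that difference, given further on, passed for 0 of 25.

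MED28 was the lowest of them, at 8.86-fold (log2 change -3.15, SE 0.39, limma adjusted p = 3.48e-06). It read 1892.5, 2352 and 1835 in the depleted cytoplasm and 70.7, 149 and 297 in the depleted nucleus, groups that stood far apart. The lowest nuclear array of MED28 lay below the offset of 94.7, so the size of its change depends on the offset. Over the alternatives the log2 change ran from -3.804 to -2.435. MED11 (1446, 1525 and 1016.5 against 154, 419 and 273) stood at -2.09 (SE 0.35) and MED30 (4389.5, 5074 and 5222 against 1456, 1129 and 1417.5) at -1.76 (SE 0.19). Both kept all nuclear arrays below all cytoplasmic ones, as did MED10, at 2462, 2885 and 2930.5 against 1217, 342 and 556 (-1.99, SE 0.35), although nuclear replicate 1 of MED10 was more than 2 times as high as either of the others. The adjusted p of these 3 was at most 1.62e-04.

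MED8 (3111, 3040.5 and 3015 against 1279, 1548 and 1008) stood at -1.13 (SE 0.24, limma adjusted p = 7.09e-04) and MED18 (2774, 2524 and 2465 against 1709, 1298 and 1720.1) at -0.61 (SE 0.18, adjusted p = 0.00971). Newly past the threshold were CycC, the cyclin partner of Cdk8, at 1724, 1831 and 1476 against 806, 711 and 829 (-1.04, SE 0.30, adjusted p = 0.00787), MED16 of the tail, at 1029.8, 977 and 707 against 623, 314 and 218 (-1.31, SE 0.44, adjusted p = 0.0194), and MED6 (-0.76, SE 0.28, adjusted p = 0.0308). In each of these 5 genes the fractions did not overlap, which only describes the arrays, as the share of all tested was not counted. MED15 was lower as well (-0.69, SE 0.23, adjusted p = 0.0208). By module, 5 of 6 head, 2 of 3 border, 1 of 7 middle, 0 of 1 scaffold, 2 of 4 tail and 1 of 4 kinase probe sets were lower. Of all tested probe sets 30.9% were lower. The modules are small, and differences between them were not tested.

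MED16, MED6 and MED15 each depended on single arrays. The call of MED16 ended without U2AF50 cytoplasm replicate 1 (adjusted p = 0.0704) or 2 (0.0646) and U2AF50 nucleus replicate 2 (0.0515) or 3 (0.0663). That of MED6 ended without U2AF50 cytoplasm replicate 2 (0.138) or 3 (0.109) and nucleus replicate 2 (0.0659), and that of MED15 without U2AF50 cytoplasm replicate 1 (0.0637) or 3 (0.0514) and nucleus replicate 2 (0.0562). Measures of RNA quality and of hybridisation moved with this comparison. In depleted cells the ratio of 3' to 5' GAPDH signal, a measure of RNA quality, averaged 2.90 ± 0.657 (SD, n = 3) for cytoplasmic arrays. It averaged 6.19 ± 2.07 for nuclear arrays. The log2 signal of the hybridisation controls, which does not measure RNA quality, averaged 12.3 ± 0.215 and 14.2 ± 0.889. With the GAPDH ratio as a covariate 9 Mediator probe sets were lower, beside 22.4% of all tested, and with the hybridisation controls 7, beside 18%, which ended the calls of CycC (adjusted p = 0.101 and 0.356) and MED6 (0.143 and 0.136) under each and those of MED15 (0.41), MED16 (0.24) and MED18 (0.0517) under the second. The 7 are thus not all among the probe sets called without the hybridisation controls. With the hybridisation controls the log2 change was -0.52 for CycC, -0.38 for MED15 and -1.05 for MED16. That of MED6 (-0.81) and MED18 (-0.67) was slightly further from 0 than without them. With the GAPDH ratio it was -0.82 for CycC and -0.69 for MED6. With arrays centred on their medians 18 were lower, beside 39.9% of all tested, and the median of all tested was then -0.52.

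**Figure D3:**
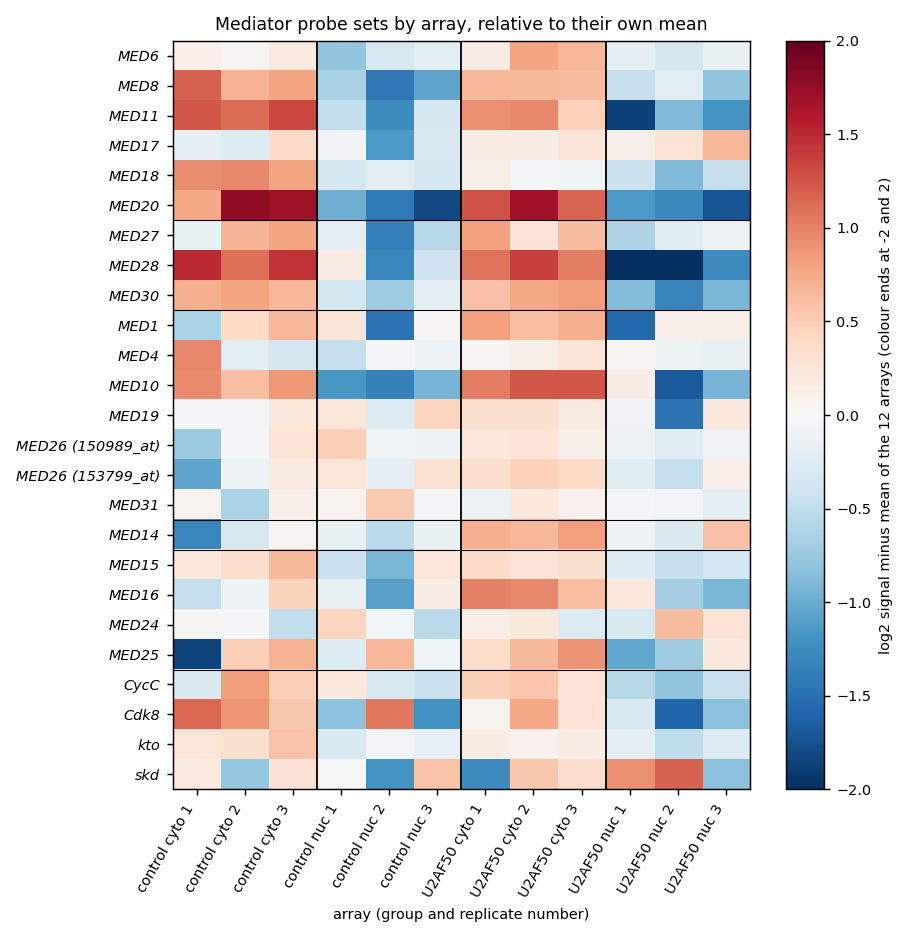
Normalised log2 signal of each Mediator probe set (rows, by module) in each array (columns, by group), minus the probe set's own mean over the 12 arrays; red is higher and blue lower, and colours end at -2 and 2. MED20, MED28, MED11 and MED8 are red in the cytoplasmic arrays and blue or near 0 in the nuclear ones, MED18 is reddest in the control cytoplasm, and Cdk8, skd and MED25 differ between arrays of the same group.

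By array, the median normalised log2 signal of the 25 probe sets was 10.16, 10.62 and 10.72 in the control cytoplasm and 10.26, 9.83 and 9.85 in the control nucleus. In depleted cells it was 10.55, 10.82 and 10.59 in the cytoplasm and 9.93, 9.76 and 9.91 in the nucleus. The fractions were apart in depleted cells, while control cytoplasm replicate 1 lay below control nucleus replicate 1. The label of control cytoplasm replicate 1, like that of replicate 2, names no hypotonic lysis. Its GAPDH ratio was 7.908, against 4.465 and 3.889 in replicates 2 and 3. Its hybridisation controls had a log2 signal of 14.65, against 13.37 and 12.46. What part these have in its values was not tested. The median SD of a Mediator probe set within a group was 0.356 in the control cytoplasm, 0.392 in the control nucleus, 0.134 in the depleted cytoplasm and 0.302 in the depleted nucleus. The 3 arrays of the depleted cytoplasm were thus the closest to each other, for all tested probe sets too (0.195).

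Depletion of U2AF50 was followed by few called changes among Mediator messages in the cytoplasm. Of 25 probe sets 1 fell, beside 0.8% of all tested probe sets, and 1 rose, beside 1.77%, shares near the background for so few genes. The one that fell was MED18, from 4359, 4727 and 4358 in control cells to 2774, 2524 and 2465 (log2 change -0.88, SE 0.18, limma adjusted p = 0.0158, 1.84-fold). All 3 depleted arrays lay below all 3 controls. The one that rose was MED14, the scaffold gene, from 608, 1154 and 1556 to 2565, 2467 and 2793 (1.25, SE 0.31, adjusted p = 0.0436, 2.38-fold), again without overlap.

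**Figure D4:**
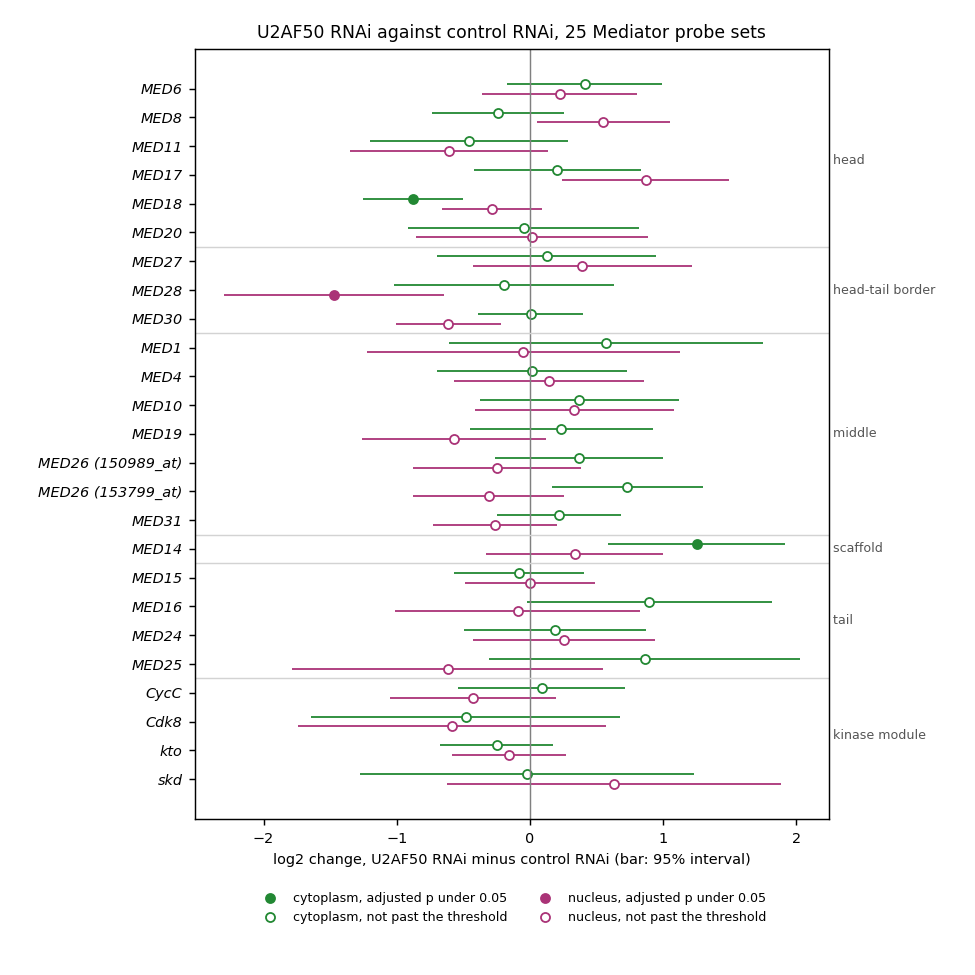
Log2 change with U2AF50 RNA interference (x axis) of the 25 Mediator probe sets in the cytoplasm (green) and nucleus (purple), with 95% intervals; filled points passed the threshold. MED18 at -0.88 and MED14 at 1.25 in the cytoplasm and MED28 at -1.47 in the nucleus are the filled points.

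Neither call was firm. MED18 lost its call without control cytoplasm replicate 1 (adjusted p = 0.0504) or 2 (0.0564), without U2AF50 cytoplasm replicate 2 (0.0724) or 3 (0.0929), with arrays centred on their medians (log2 change -0.54, adjusted p = 0.131, where the median of all tested was 0.21) and without the control arrays whose labels name no hypotonic lysis (-0.77, 0.514). MED14 lost its call in 15 of 26 alternatives. Without control cytoplasm replicate 1, the lowest of its arrays, its change was 0.87 (adjusted p = 0.174). In the other fits without an array in which the call ended, it was between 1.20 and 1.36, with an adjusted p of 0.075 for control cytoplasm replicate 2, 0.0662, 0.0558 and 0.0654 for control nucleus replicates 1, 2 and 3, and 0.133, 0.13 and 0.18 for U2AF50 cytoplasm replicates 1, 2 and 3. The GAPDH ratio was 5.42 ± 2.17 (SD, n = 3) in the control cytoplasm against 2.90 ± 0.657 in the depleted cytoplasm, and with it as a covariate the change of MED18 was -0.87 (adjusted p = 0.081) and that of MED14 was 0.88 (0.355). With the hybridisation controls (13.5 ± 1.10 against 12.3 ± 0.215) these were -0.84 (0.0819) and 0.63 (0.41), so MED18 hardly moved and MED14 came closer to 0. What part RNA quality or hybridisation has in these changes was not tested beyond these fits.

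The other Mediator messages did not pass in the cytoplasm, with 3 of 25 at an unadjusted p under 0.05 including the called pair. The share of all tested probe sets at such a p was not counted, here or for the counts at unadjusted p below. The third was the MED26 probe set that read 1136.5, 2142 and 2713 in control and 3201, 3441 and 3299 in depleted cytoplasm, without overlap (0.73, SE 0.27, limma adjusted p = 0.183). The second MED26 probe set overlapped between treatments (0.37, adjusted p = 0.59). MED16 of the tail read 365, 422 and 634 against 1029.8, 977 and 707 (0.90, SE 0.44, adjusted p = 0.331), also without overlap. All 7 middle probe sets, which include both of MED26, had a change above 0, from 0.01 for MED4 to 0.73. Their median was 0.37 against 0.04 for all tested, and 0 of them passed. The share of all tested probe sets above 0 was not counted. These probe sets were read from the same arrays, so their signs are not independent. MED28 stood at -0.19 (adjusted p = 0.855) and MED30 at 0.00 (95% interval -0.39 to 0.40), the narrower of the intervals of these 2 genes.

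In the nucleus 1 of 25 probe sets fell with depletion, beside 1.83% of all tested, and 0 rose, beside 1.58%. The one that fell was MED28, from 837, 297 and 558 to 70.7, 149 and 297 (log2 change -1.47, SE 0.39, limma adjusted p = 0.0478, 2.77-fold). The highest depleted array, replicate 3 at 297.0, met the lowest control array, replicate 2 at 296.8, so the groups touched. The call held in 7 of 26 alternatives. Among the fits that left out an array it held only without control nucleus replicate 2 or U2AF50 nucleus replicate 3. The adjusted p was 0.215 and 0.14 without control nucleus replicates 1 and 3, 0.123 and 0.0916 without U2AF50 nucleus replicates 1 and 2, 0.0524, 0.0641 and 0.0644 without control cytoplasm replicates 1, 2 and 3, and 0.0783, 0.0764 and 0.076 without U2AF50 cytoplasm replicates 1, 2 and 3. The change itself stayed below 0 throughout, between -1.97 and -1.02. The value of -1.02 came with the offset raised to 256.6 (limma adjusted p = 0.063), the depleted arrays being weak.

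Of the others, 3 had an unadjusted p under 0.05 in the nucleus. MED17, at 1068, 517 and 875 in control cells, read 1289.7, 1480.1 and 1984 in depleted cells, without overlap (0.87, SE 0.30, limma adjusted p = 0.133). MED30 read 2139.5, 1583 and 2420.4 against 1456, 1129 and 1417.5 (-0.61, SE 0.19, adjusted p = 0.0873), and here too the groups were apart. MED8 read 1055, 637 and 774 against 1279, 1548 and 1008 (0.55, SE 0.24, adjusted p = 0.245), where the arrays overlapped. The median of the 25 was -0.09 against -0.05 for all tested.

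Whether the difference between the fractions changed with depletion was tested as the interaction. Limma called 0 of 25 Mediator probe sets lower, beside 0.0955% of all tested, and 0 higher, beside 0.0716%, and 5 had an unadjusted p under 0.05. MED28 (-1.28, SE 0.55, adjusted p = 0.339), MED30 (-0.62, SE 0.26, 0.332) and the first of the MED26 probe sets above (-1.04, SE 0.38, 0.269) had values below 0, and MED8 (0.79, SE 0.33, 0.322) and MED18 (0.59, SE 0.25, 0.332) values above 0, none past the threshold. The smallest adjusted p was 0.269, so differences of this size did not pass once adjusted over 8379 probe sets. The median SE of the 25 was 0.46. MED20 had an interaction of 0.06, with a 95% interval from -1.17 to 1.29. The comparisons of depletion and of fractions share arrays, so their values are given side by side and not as support for each other.

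The members with the widest spread included skd, MED25, MED1 and Cdk8. The array values of skd, the fly MED13, were 751, 301 and 695 in the control cytoplasm, 533, 216 and 831 in the control nucleus, 147, 841 and 722 in the depleted cytoplasm and 1162, 1420.5 and 299.7 in the depleted nucleus. Its groups overlapped in all 4 comparisons, and its SE was 0.59. MED25, a tail subunit that binds activators, read 128, 858 and 1019 in the control cytoplasm, with replicate 1 far below the others, and 745, 949 and 1184 in the depleted cytoplasm. MED1, the contact of nuclear receptors, ranged from 63.1 to 386 over the control nuclear arrays and from 59.6 to 436 over the depleted ones. By contrast kto, whose product activates the kinase, read 1864 ± 42.5 (SD, n = 3) in the depleted cytoplasm and 1864.9, 2028.5 and 2501 in the control cytoplasm.

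Genes of other parts of the transcription machinery were read from the same fit. Of all tested probe sets, 25.2% were lower and 16.9% higher in the nucleus of control cells. In depleted cells 30.9% were lower and 17.9% higher. Of 4 measured RNA polymerase II subunit genes, Polr2E, Polr2H, Polr2J and Polr2L, 4 were lower in the nucleus of control cells (median -1.70) and 4 in that of depleted cells (median -1.56), with Polr2L at -1.94 (SE 0.17) and Polr2J at -1.83 (SE 0.17) in control cells. Of 16 genes of the general factors TFIIA, B, E, F and H, 8 were lower and 0 higher in control cells (median -0.71) and 11 and 0 in depleted cells (median -1.05), led in control cells by TfIIA-S (-1.92, SE 0.15). In TFIID, 4 of 11 were lower and 1, Taf3 (named after its value was seen), was higher in control cells (median -0.65), Taf13 being lowest (-1.89, SE 0.32), and 4 were lower and 1 higher in depleted cells (median -0.74). In SAGA, another coactivator, 3 of 10 were lower in control cells (median -0.65) and 6 in depleted cells (median -1.36), and e(y)2 led in control cells (-2.60, SE 0.48). Integrator, which processes RNA ends at the polymerase, had 2 of 12 lower and 2 higher in control cells (median -0.37), and 4 lower and 1 higher in depleted cells (median -0.71). The Mediator genes, at 1 probe set a gene, had 10 of 24 lower and 0 higher in control cells (median -0.55) and 11 of 24 and 0 in depleted cells (median -0.82). With depletion 0 genes of these 5 lists were called in the cytoplasm, where 0.8% of all tested probe sets were lower and 1.77% higher. In the nucleus 1 was called, where 1.83% of all tested were lower and 1.58% higher. For so few genes these counts are near the background. The called gene was Sf3b5 of SAGA and of the spliceosome, which fell (-0.97, SE 0.24, limma adjusted p = 0.0316).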

How the data were processed

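The authors deposited 1 intensity per probe set and array on a linear scale, for 14010 probe sets and 12 arrays. Without the lowest and highest 2% of probe sets, the array means lie between 1000.1 and 1000.2, a scaling read from the values themselves. Image software, background correction and probe summary were not given in the sources used here, and calls of detection were not used. Here 44 Affymetrix control probe sets were set aside, the 20th percentile of all values (94.7) was added, log2 was taken, arrays were quantile normalised and probe sets above the 40th percentile of mean signal (8379) went into a limma fit of all 12 arrays (limma 3.58.1 under R 4.3.3, lmFit, then eBayes with a trend, 8 residual degrees of freedom). The number of arrays limits the precision. Of 12444 probe sets with 1 symbol in the platform annotation, 12394 matched RefSeq's fly table (Release 6 plus ISO1 MT) and 0 symbols changed. For lists of other complexes the probe set with the highest mean stood for a gene, and 3 older symbols were matched through that table. Arrays with the same replicate number did not deviate together (median r of 0.012 over 18 pairs, 1 above 0.1), so the fit has no block. Every Mediator gene is named, and values by array are given for MED20, MED28, those called with depletion, and the 8 largest called differences between fractions under each treatment, with others added after their values were seen. The gene ix was added after Mediator results had been seen. The members and lists were chosen with earlier results of these data known. Alternatives changed the scaling, offset, filter, variance model, covariates, block and arrays used.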

Additional observations from a re-analysis of the deposited data

How the results depend on the processing

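Of 744 refits of the single Mediator differences, 652 kept their direction and side of the threshold and 78 lost a call. In 14, all of uncalled values of MED20 or MED28 with depletion or in the interaction, the sign turned and no call arose. MED8, MED10, MED11, MED20, MED28 and MED30 kept their calls between fractions under both treatments in every alternative that tested them. In control cells the count of lower probe sets ran from 7 to 11 without single arrays, beside 21.1% to 27.1% of all tested. It was 8 to 10 otherwise, beside 14.3% (no filter) to 35.2% (filter at the 60th percentile, which tested 19 Mediator probe sets). With the hybridisation controls in the fit 1 was higher, beside 17.5%. In depleted cells 18 probe sets were lower with arrays centred on their medians, beside 39.9% of all tested. With the hybridisation controls 7 were lower, beside 18%, and without single arrays 8 to 14, beside 25% to 31.9%. In the cytoplasm the 2 calls with depletion became 1 with median centring (0 lower), with a pseudocount of 16, with no filter or on the contrast's groups alone (0 higher each), and 0 without an intensity trend, with either covariate or without the control arrays lacking a lysis label, and ranged from 0 to 2 without single arrays (0 to 1 in each direction). In the nucleus the 1 call became 0 as deposited, with the larger pseudocount, no filter, no trend, the GAPDH ratio, those control arrays left out or the contrast's groups alone, and 0 to 1 without single arrays; with the hybridisation controls it was 0 lower and 1 higher. With the replicate block the counts were 10, 13, 2, 0 and 0 in the order of the report. Of all tested probe sets, 42.2%, 48.8%, 2.65%, 3.19% and 0.239% were then called in either direction. The MED28 call in the nucleus ended with the block (limma adjusted p = 0.0544). In the interaction 0 were called in every alternative run. The causes were not tested. Over all tested probe sets, median centring gave 44 lower and 317 higher in the cytoplasm (main 67 and 148), 240 and 69 in the nucleus (main 153 and 132) and 173 and 10 in the interaction (main 8 and 6, with 25 and 10 as deposited, 20 and 7 with quantiles within fractions). Without the control arrays lacking a lysis label, which leaves control cytoplasm with 1 array assumed to vary like the others, 24 were called in the cytoplasm (main 215), 141 in the nucleus (main 285) and 0 in the interaction (main 14). In the cytoplasm 125 were called with no filter, 43 with no trend, 61 with the hybridisation controls and 50 with the GAPDH ratio. In the nucleus 155 were called with no trend and 186 on its groups alone. Between fractions of depleted cells 2669 were called with the hybridisation controls (main 4088). In the interaction 25 were called with the larger pseudocount or the stricter filter, 7 with no filter, 3 with the hybridisation controls, and 5 with the GAPDH ratio or no trend. Without single arrays the calls over all tested probe sets ran from 52 to 378 in the cytoplasm, 124 to 354 in the nucleus and 3 to 83 in the interaction.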
